A study of Homo sapiens with 18 samples.

Results

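The DNA damage response was followed here through the splicing of 53 DNA repair and checkpoint genes. Members were taken as introns, in the hg38 assembly, with at least 1 splice site on an annotated exon boundary of a listed gene. Of the 233650 introns measured in the series, 1557 met that rule, and they belonged to 50 of the 53 genes. XRCC5, XRCC6 and PARP1 gave no such intron and were not analysed here. A further filter kept introns whose mean PSI lay between 1% and 99%, which left 940 introns of these genes among 152722 in the series, with 6 to 52 per gene and a median of 18. PSI, the percentage spliced in, is the share of split reads that an intron takes within its cluster of overlapping introns, so the PSI of a cluster add to 1 and a rise of 1 intron is a fall of others.

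The study used SHEP.tet21n, a human neuroblastoma line with a MYCN transgene that doxycycline (2 µg/mL) switches off. Wildtype, in the study's terms, was MYCN-/SNRPD3+, which is doxycycline with a control siRNA. MYCN+/SNRPD3+ cells received the DMSO vehicle and the control siRNA. MYCN-/SNRPD3- and MYCN+/SNRPD3- cells received doxycycline or DMSO with either of 2 siRNAs against SNRPD3, siRNA #1 or siRNA #2, so there were 6 groups of 3 libraries. All groups are derivatives of a single engineered line, and doxycycline exposure and MYCN repression cannot be told apart in them. PSI carries neither gene expression nor intron retention. MYCN repression, SNRPD3 depletion and the identity of the cells could therefore not be checked from these values, and the number of reads behind a PSI is unknown.

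Cells answer DNA breaks and stalled replication forks through kinases such as ATM, ATR, CHEK1 and CHEK2, which hold the cell cycle while repair proceeds. Breaks are then mended by homologous recombination (BRCA1, BRCA2 and PALB2 among others) or by end joining, crosslinks are released by the Fanconi anaemia proteins, and damaged or mispaired bases are removed by excision and mismatch repair. Many of these genes are long and have many short exons. SNRPD3 encodes a Sm protein of the spliceosomal small nuclear ribonucleoproteins that recognise splice sites.

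Few introns of these genes passed in any comparison. In the comparison of MYCN+/SNRPD3+ with wildtype, which asks what MYCN alone does, 0 of 940 introns passed an adjusted p of 0.05 (limma, Benjamini-Hochberg across the series), where 0.0543% of all tested introns did. SNRPD3 depletion with MYCN repressed gave 0 of 940 (all introns, 0.0138%) and with MYCN expressed 0 of 940 (0.0196%). When both were altered, MYCN+/SNRPD3- against wildtype, 5 introns in 4 genes passed, 4 higher and 1 lower, against 0.559% of all introns. The 5 lay in CHEK1, FANCA, RECQL and MRE11. Averaged over the 3 siRNA conditions, MYCN expressed against repressed, 11 introns in 7 genes passed, 4 higher and 7 lower, against 1.23% of all introns. They lay in CHEK1, ERCC1, MSH5, FANCE, RAD51C, RECQL and RAD51B. As shares of the 940, the 5 and the 11 were close to those over all introns.

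The remaining comparisons called no member intron. The interaction of knockdown with MYCN gave 0 of 940 (all introns, 0.0177%), the knockdown averaged over both MYCN states 0 of 940 (0.0242%), and siRNA #1 against siRNA #2 0 of 940 (0.0183%). At an unadjusted p under 0.05 the counts among members were 66 for MYCN alone (all introns, 6.19%), 33 for knockdown with MYCN repressed (4.69%) and 63 for knockdown with MYCN expressed (7.06%). They were 112 when both were altered (11%), 36 for the interaction (3.98%), 62 for the averaged knockdown (7.8%), 112 for MYCN over all siRNAs (11.7%) and 58 between the siRNAs (5.38%). The corresponding shares of the 940 introns ran from 3.51% to 11.9%. The median absolute PSI difference of members was 1.18 percentage points when both were altered, beside 1.73 points over all introns.

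By role, the kinases and mediators of the damage response held 139 of the tested introns. Of these, 2 were called when both were altered and 4 for MYCN over all siRNAs, where 0.559% and 1.23% of all introns were. All of these calls were in CHEK1, and most were introns of 1 cluster that share the exon 2 splice site. Homologous recombination held 228 (0 and 2), the Fanconi anaemia pathway 215 (1 and 1), the RecQ helicases 98 (1 and 1), nucleotide excision repair 75 (0 and 1), the mismatch repair family 67 (0 and 2) and the MRN complex with end resection 61 (1 and 0). Strand break sensing with other ligases held 44 and end joining 13, with 0 called in both comparisons.

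The count for both altered was the less stable of the pair. It was 3 with siRNA #1 alone and 0 with siRNA #2 alone, and it was 0 when any of the 3 wildtype libraries was left out. Without library 3 or library 1 of MYCN+/SNRPD3- siRNA #2 it was 1 and 3, without library 3 of MYCN+/SNRPD3- siRNA #1 it was 3, and without library 3 of MYCN-/SNRPD3- siRNA #1 it was 8. For MYCN over all siRNAs it was 6 without wildtype library 1 or without library 2 or 3 of MYCN-/SNRPD3- siRNA #2, and 7 without library 1 of that group or library 3 of MYCN+/SNRPD3- siRNA #2. Library 3 had the highest mean exon skipping, over all exons of the series, in each of the 4 knockdown groups (17.6% and 17.3% with MYCN repressed, 20.9% and 20.1% with MYCN expressed). It was also highest in MYCN+/SNRPD3+ (17.2%, beside 16.8% and 16.8%) but not in wildtype (15.9%, beside 16.2% and 16.1%). Without library 3 of the 4 knockdown groups, an alternative chosen after seeing the data, the counts were 0 for both altered and 4 for MYCN over all siRNAs. The reason library 3 stood higher was not tested.

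CHEK1 had the most called introns. It encodes the kinase CHK1, which acts downstream of ATR when replication forks stall. Its exon 2, which holds the usual start codon, was joined to exon 1 or to other splice donors downstream of it on chromosome 11. The choice among these donors differed with MYCN. The other annotated donors are labelled alternative first exons here, though PSI does not tell a separate first exon from a longer exon 1. The windows around the exon 1 donor and the other annotated donors are shown because these sites carry the finding. Each holds 3 exon bases and 6 intron bases, read 5′ to 3′ on the plus strand, with the first 2 intron bases in capitals.
CHEK1 exon 1, chr11:125626010-125626018: ccgGTgagg
CHEK1 alternative first exon, chr11:125626573-125626581: atgGTcagg
CHEK1 alternative first exon, chr11:125626640-125626648: aagGCaaga
The last of these has GC in place of the usual GT, as do 33 of 1258 annotated donors (2.62%) of the member genes off chromosome 8. The exon 1 donor and the GC donor each matched the consensus CAGGTAAGT at 6 of 9 bases, which is the median of those donors. The donor of the 173-base intron matched at 5.

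The intron from exon 1 to exon 2 (chr11:125626012-125626749, 736 bases) took 57.3%, 55.0% and 43.6% of its cluster in the 3 wildtype libraries. With MYCN alone it took 73.7%, 77.7% and 69.8%. With both changes the values were 76.2%, 70.8% and 80.4% with siRNA #1 and 67.7%, 73.4% and 68.2% with siRNA #2. All 9 libraries that expressed MYCN lay above all 9 that did not, since the MYCN-/SNRPD3- libraries ran only from 53.1% to 64.0%. The log2 odds rose by 1.02 ± 0.15 (SE) over all siRNAs, limma adjusted p = 0.00441, and by 1.29 ± 0.22 when both were altered, adjusted p = 0.026. For MYCN alone the difference was of like size, 1.35 ± 0.26, but did not pass, adjusted p = 0.118. SNRPD3 depletion with MYCN expressed gave -0.06 ± 0.22, which was smaller than its error.

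The alternative first exons fell in turn. The 173-base intron (chr11:125626575-125626749) took 13.6% ± 1.73 (SD, n = 3) in wildtype, 6.06% ± 1.93 with MYCN alone, and 4.46% ± 1.48 and 5.37% ± 1.21 in MYCN+/SNRPD3- cells with siRNA #1 and #2. When both were altered its log2 odds fell by 1.47, SE 0.24, limma adjusted p = 0.0215, and by 1.00 over all siRNAs, SE 0.16, adjusted p = 0.0087. The 106-base intron behind the GC donor (chr11:125626642-125626749) took 20.3% to 32.5% in the libraries with MYCN repressed, with a median of 25.5%, and 11.5% to 20.9% in those with MYCN expressed, with a median of 16.9%. The ranges overlapped by a single library of each kind, and its log2 odds over all siRNAs fell by 0.73, SE 0.14, limma adjusted p = 0.0192.

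**Figure D1:**
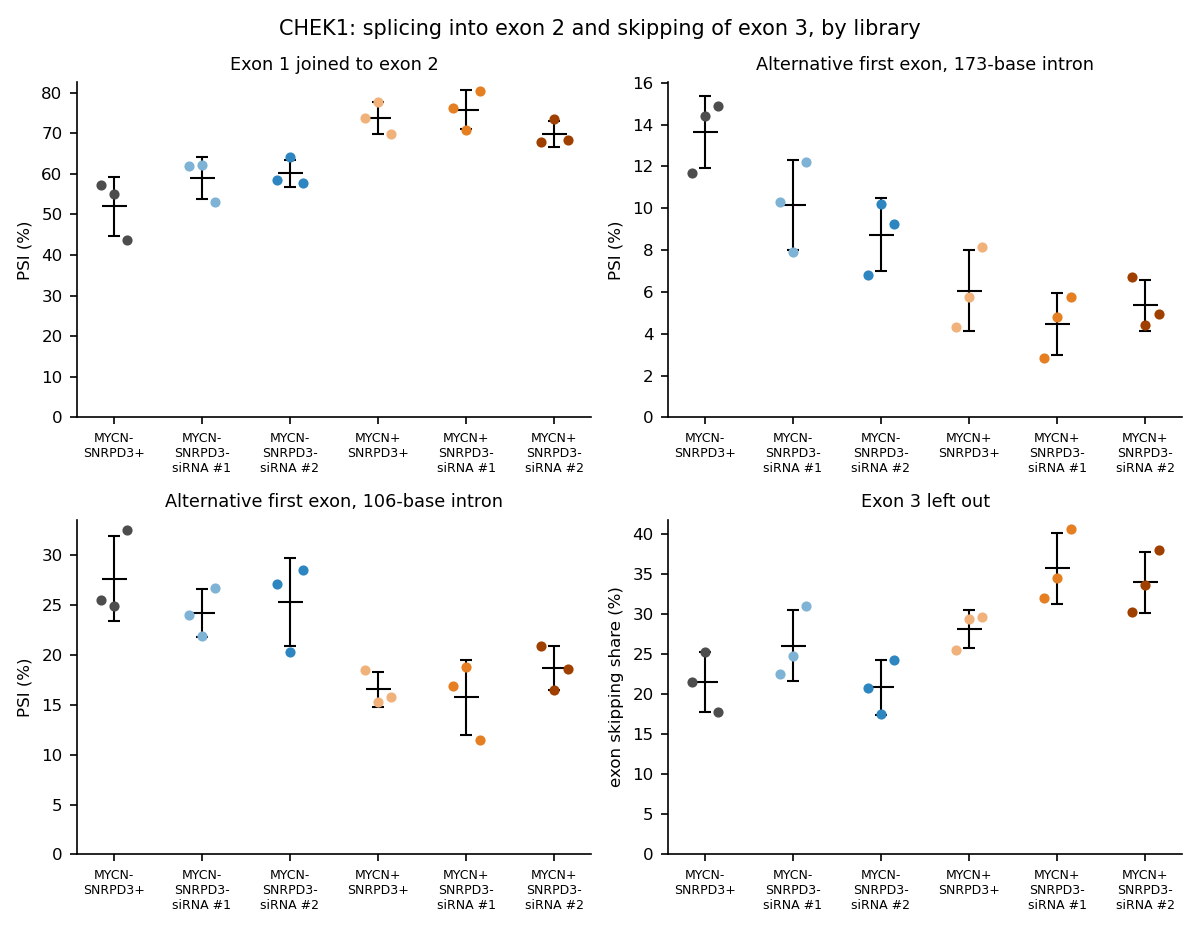
CHEK1 by library, with group on the horizontal axis and PSI or exon skipping share, in percent, on the vertical axis; points are libraries, bars the mean ± SD of 3. The exon 1 panel shows every library with MYCN expressed (67.7% to 80.4%) above every library with MYCN repressed (43.6% to 64.0%), and the 2 alternative first exons show lower values with MYCN expressed.

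CHEK1 exon 3 was left out more often. The skipping share of an exon is the PSI of the intron that leaps it over the sum of that PSI and the mean PSI of its 2 flanking introns. This measure was added after the data were seen, for exons of the canonical transcripts skipped alone, which gave 87 exons in 37 member genes among 7782 in the series. The exon is shown with 10 lower-case intron bases on each side and the exon in capitals, because it encodes part of the kinase domain and its 224 bases are not a multiple of 3. The skip is annotated in a protein-coding transcript.
CHEK1 exon 3, chr11:125627597-125627840, plus strand: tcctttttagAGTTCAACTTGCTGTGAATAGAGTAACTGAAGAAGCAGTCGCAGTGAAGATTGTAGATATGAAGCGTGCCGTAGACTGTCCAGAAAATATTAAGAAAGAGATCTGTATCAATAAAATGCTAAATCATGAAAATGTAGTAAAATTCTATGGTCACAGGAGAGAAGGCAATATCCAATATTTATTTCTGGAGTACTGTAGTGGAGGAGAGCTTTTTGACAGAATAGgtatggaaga
It was skipped in 21.5%, 25.3% and 17.8% in wildtype and in 25.5%, 29.4% and 29.7% with MYCN alone. In MYCN+/SNRPD3- cells the shares were 32.0%, 34.6% and 40.7% with siRNA #1 and 30.3%, 33.7% and 38.0% with siRNA #2. These 6 libraries all lay above the 3 of wildtype, and the difference of 13.4 percentage points passed (log2 odds 0.94 ± 0.21, limma adjusted p = 0.0174). Over all siRNAs MYCN added 9.82 points (0.70 ± 0.14, adjusted p = 0.00983), while MYCN alone, at 6.67 points, did not pass (adjusted p = 0.565). The knockdown gave 1.95 points with MYCN repressed (adjusted p = 0.949) and 6.68 points with MYCN expressed (adjusted p = 0.347), and neither passed. The intron from exon 2 to exon 4 that carries this skip passed as an intron too, over all siRNAs (log2 odds 0.68 ± 0.13, limma adjusted p = 0.0208).

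Among all exons the same measure gave 5 called member exons when both were altered, 4 of them skipped more, where 9.97% of all exons were called, and 7 for MYCN over all siRNAs, all skipped more, where 8.28% were. Without wildtype library 1, 2 or 3 the first count was 2, 3 and 3, and without library 3 of all knockdown groups the counts were 3 and 3. With siRNA #2 alone the first count was 0. The second was 4 without library 1 or 3 of wildtype or of MYCN+/SNRPD3+, without library 3 of MYCN+/SNRPD3- siRNA #1 or #2, without library 2 of MYCN-/SNRPD3- siRNA #1, or without library 3 of MYCN-/SNRPD3- siRNA #2. The 87 member exons gave no call for MYCN alone (all exons, 0.0257%), the knockdown with MYCN repressed (0.0%) or expressed (0.0257%), the interaction (0.0%), the averaged knockdown (0.0386%) or between the siRNAs (0.0%). Skipping was higher on average, without regard to a test, in 66 of the 87 when both were altered (75.9%), beside 77.9% of all exons. It was higher in 47 with MYCN alone (54.0%, all exons 59.9%), in 52 on knockdown with MYCN repressed (59.8%, all exons 65.7%) and in 63 on knockdown with MYCN expressed (72.4%, all exons 75.1%). The median change when both were altered was 1.41 points, beside 1.64 points over all exons. Mean skipping over the 87 exons was 6.37%, 5.89% and 6.60% in wildtype, and 7.21% to 9.59% in MYCN+/SNRPD3- libraries, and it was highest in library 3 of all 6 groups (6.60%, 8.48%, 7.37%, 7.83%, 9.59% and 9.57%). With the replicate number as a block, 8 member exons were called when both were altered in place of 5.

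**Figure D2:**
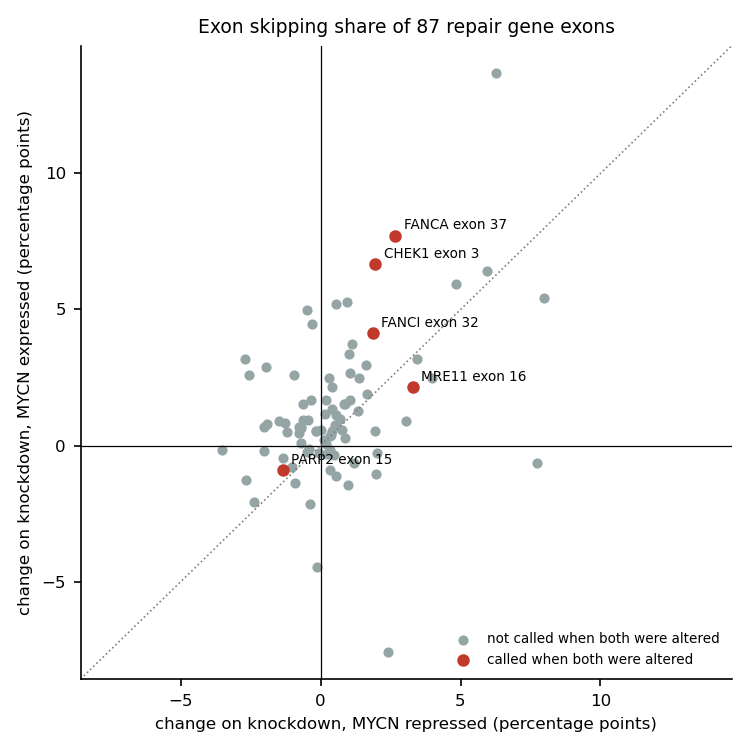
Change in exon skipping share, in percentage points, on SNRPD3 depletion with MYCN repressed (horizontal axis) and with MYCN expressed (vertical axis), 1 point per exon of the 87, with the diagonal dotted. Exons above the horizontal line are skipped more on depletion with MYCN expressed (63 of 87), and the 5 called when both were altered are named.

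In the MRN complex, which senses double-strand breaks, MRE11 exon 16 was skipped more. MRE11 is the nuclease of the complex. The exon is shown because its 84 bases are a multiple of 3, so the joined exons stay in frame, and the skip is an annotated protein-coding form.
MRE11 exon 16, chr11:94445800-94445903, minus strand: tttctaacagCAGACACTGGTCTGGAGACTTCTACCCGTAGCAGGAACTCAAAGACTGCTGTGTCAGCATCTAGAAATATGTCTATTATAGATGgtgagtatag
It was skipped in 2.46%, 5.00% and 2.58% in wildtype, and in 7.10%, 7.17% and 7.76% with MYCN alone. With both changes the shares were 6.43%, 10.6% and 14% with siRNA #1 and 7.08%, 8.31% and 10.6% with siRNA #2. All 9 libraries with MYCN expressed lay above the 3 of wildtype. The change when both were altered passed (6.16 points, log2 odds 1.37 ± 0.27, limma adjusted p = 0.0113), as did MYCN over all siRNAs (3.24 points, adjusted p = 0.034), a call lost in 13 of 25 alternatives. The intron that leaps the exon (chr11:94437235-94447219) also passed for both altered, from 1.64% to 5.20% and 4.31% of its cluster (limma adjusted p = 0.0457). It lost the call in 23 of 27 alternatives. The intron took 3.68% ± 0.192 with MYCN alone, and 3.78% ± 0.222 and 2.86% ± 0.984 on depletion with MYCN repressed. Skipping thus also stood higher than in wildtype without MYCN, but that depletion effect, 1.67 points, did not pass (limma adjusted p = 0.841). RBBP8, whose protein CtIP starts end resection, had its first intron at 70.2% ± 3.55 in wildtype and 60.6% ± 4.96 with MYCN alone, which did not pass (adjusted p = 0.531). NBN, the third protein of the complex, joined exon 2 to exon 3 in 72.7% ± 7.05 in wildtype and in 83.9% ± 5.03 and 80.3% ± 5.20 in MYCN+/SNRPD3- cells. Its averaged knockdown effect of 6.44 points did not pass (adjusted p = 0.589).

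Of the Fanconi anaemia genes, FANCA and FANCI each had a called exon. FANCA belongs to the core complex that ubiquitylates FANCD2 and its partner FANCI at stalled forks. Both exons are shown because neither length (139 and 188 bases) is a multiple of 3. The FANCI skip is annotated in a form marked for nonsense-mediated decay, and the FANCA skip in forms marked for nonsense-mediated decay or as retained intron.
FANCA exon 37, chr16:89742790-89742948, minus strand: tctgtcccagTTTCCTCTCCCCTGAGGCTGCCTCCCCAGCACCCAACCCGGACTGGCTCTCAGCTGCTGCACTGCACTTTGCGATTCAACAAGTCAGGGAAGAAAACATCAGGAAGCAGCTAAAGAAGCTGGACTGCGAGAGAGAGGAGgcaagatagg
FANCI exon 32, chr15:89305997-89306204, plus strand: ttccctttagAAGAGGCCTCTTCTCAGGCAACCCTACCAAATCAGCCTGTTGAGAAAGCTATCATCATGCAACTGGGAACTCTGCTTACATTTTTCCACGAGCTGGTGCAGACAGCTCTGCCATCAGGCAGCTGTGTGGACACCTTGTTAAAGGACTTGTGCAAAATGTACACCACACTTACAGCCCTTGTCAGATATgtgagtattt
The intron behind FANCA exon 37 begins with GC. FANCA exon 37 was skipped in 4.99%, 6.81% and 6.91% in wildtype. In MYCN+/SNRPD3- cells it was skipped in 20.5%, 15.1% and 17.9% with siRNA #1 and in 10.4%, 13.6% and 17.2% with siRNA #2. These groups did not overlap, and the difference of 9.54 points was called (log2 odds 1.35 ± 0.25, limma adjusted p = 0.00847). MYCN alone gave 1.83 points (adjusted p = 0.788), and depletion gave 2.67 points with MYCN repressed (adjusted p = 0.819) and 7.71 points with MYCN expressed (adjusted p = 0.131). The difference between those depletion effects did not pass (adjusted p = 0.986). The leaping intron passed as well (chr16:89740866-89744959, log2 odds 1.03 ± 0.18, limma adjusted p = 0.0275).

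FANCI exon 32 was skipped in 4.55%, 4.80% and 3.59% in wildtype and 4.43%, 4.88% and 4.62% with MYCN alone. With both changes the shares were 7.56%, 9.49% and 11.6% with siRNA #1 and 7.33%, 7.18% and 9.34% with siRNA #2. All 6 lay above wildtype, and the difference was called (4.44 points, 0.93 ± 0.22, limma adjusted p = 0.0189). FANCI exon 32 did not pass for MYCN alone, for the knockdown in either MYCN state or for the interaction.

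PARP2 was the exception in direction. It encodes a poly(ADP-ribose) polymerase that marks strand breaks, and its exon 15 (125 bases, chr14:20357396-20357520) was skipped less. The share was 2.68%, 2.5% and 2.58% in wildtype and 0.465% to 1.11% in MYCN+/SNRPD3- libraries. The change fell by 1.70 points (log2 odds -0.96 ± 0.22, limma adjusted p = 0.0174). It was also the smallest change in points among the called exons for both altered. PARP2 exon 15 did not pass for MYCN alone, for the knockdown in either MYCN state or for the interaction.

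FANCE, another core complex gene, had a called intron at its 5′ end. Its exon 1 was joined to exon 2 from the annotated donor or from unannotated donors downstream, and the 2 main windows are shown with the first 2 intron bases in capitals.
FANCE annotated donor, chr6:35452791-35452799, plus strand: gctGTaagt
FANCE unannotated donor, chr6:35452994-35453002, plus strand: aagGTatag
The unannotated donor (chr6:35452996-35455747) took 2.70%, 7.13% and 13.1% in wildtype and 12.4%, 8.05% and 9.54% with MYCN alone. In MYCN+/SNRPD3- cells it took 32.6%, 21.4% and 18.4% with siRNA #1 and 23.5%, 30.7% and 40.8% with siRNA #2. The 6 libraries with both changes were above every other library but 1 of MYCN-/SNRPD3- siRNA #2, at 19.5%. Over all siRNAs MYCN added 13.8 points (log2 odds 1.75 ± 0.34, limma adjusted p = 0.025), and the difference for both altered, 20.3 points, did not pass (adjusted p = 0.0719). The annotated donor took 89.7% ± 4.29 in wildtype and 65.5% ± 8.74 and 57.9% ± 11.4 in MYCN+/SNRPD3- cells, a difference that also missed the threshold (adjusted p = 0.0583). Its depletion effect with MYCN expressed was -26.1 points (adjusted p = 0.308). FANCM, the translocase that anchors the core complex, joined exon 15 to exon 17 in 0.0412% to 3.21% in wildtype and in 4.14% to 8.51% in MYCN+/SNRPD3- libraries, and the depletion effect with MYCN expressed did not pass (adjusted p = 0.411).

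**Figure D3:**
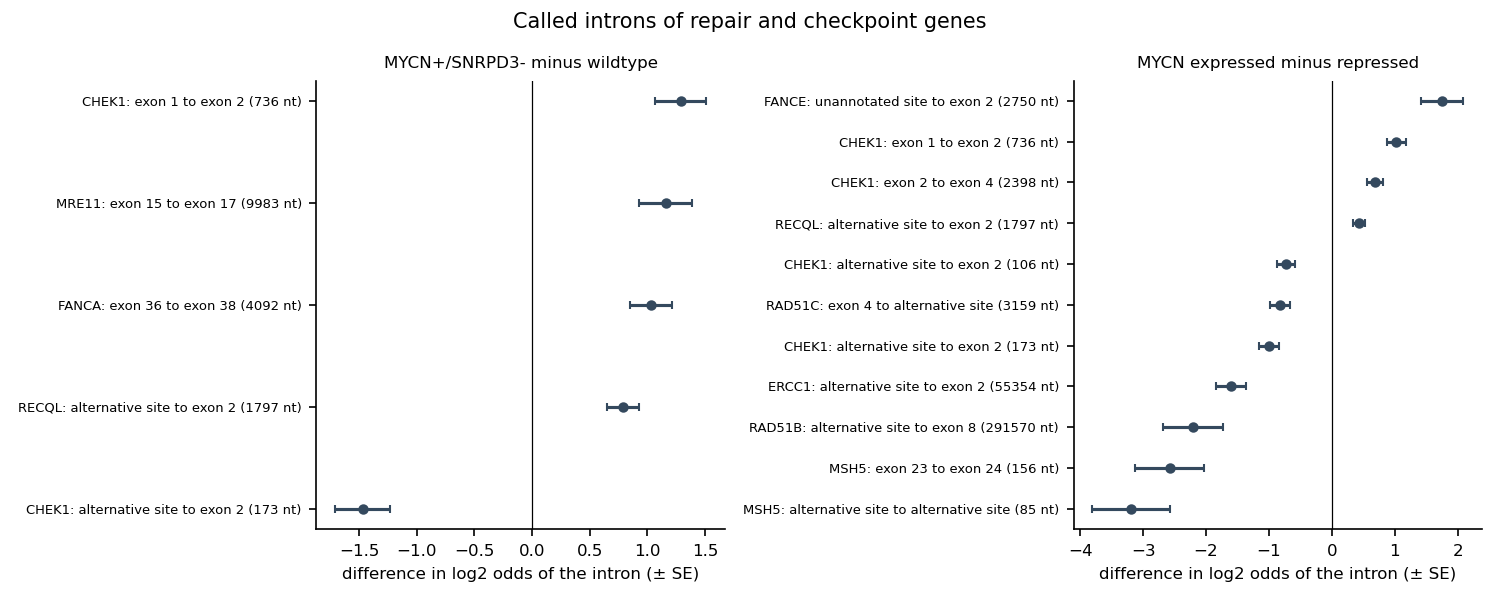
Introns of the member genes called when both were altered (left) and for MYCN over all siRNAs (right), with the difference in log2 odds on the horizontal axis and bars of 1 SE. CHEK1 is the gene with most called introns (2 on the left, 4 on the right), and the widest errors belong to MSH5.

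Of the homologous recombination genes, RAD51C and RAD51B had called introns. RAD51C exon 4 was joined to an alternative site (chr17:58703329-58706489) in 1.24% to 3.87% with MYCN repressed, median 3.03%, and in 0.702% to 1.81% with MYCN expressed, median 1.12%. The fall of 1.63 points passed over all siRNAs (log2 odds -0.82 ± 0.16, limma adjusted p = 0.0272) and was lost in 12 of 24 alternatives. RAD51B exon 8 was reached from an alternative upstream site (chr14:68000313-68291884, an unannotated join) in 15.5%, 11.2% and 15.1% in wildtype and in 0.0892%, 0.0885% and 7.62% with MYCN alone. Values with MYCN expressed thus ran from near 0 to 13.5%, overlapping wildtype, and the fall over all siRNAs (12.8 points, limma adjusted p = 0.043) was lost in 17 of 25 alternatives.

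BRCA1, which directs resection and binds PALB2, had called exons but no called intron. Exon 3 (54 bases, in frame) was skipped in 2.87% ± 1.03 in wildtype and 6.44% ± 1.27 with MYCN alone, and in 7.45% ± 2.86 and 4.95% ± 2.78 in MYCN+/SNRPD3- cells. Over all siRNAs MYCN added 3.74 points (log2 odds 1.09 ± 0.25, limma adjusted p = 0.0168), with ranges of 1.23% to 4.34% and 2.63% to 10.5% that overlapped. Exon 21 (74 bases) rose by 2.01 points over all siRNAs (adjusted p = 0.0319), and this call was lost in 13 of 24 alternatives. The large central exon of BRCA1, exon 10 of its canonical transcript with 3426 bases, was spliced to exon 11 from its full-length end in 84.0% ± 9.03 in wildtype, and from an internal donor that removes most of it in 16%.

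The use of that internal donor was close across groups, at 15.5% and 11.6% with SNRPD3 depleted alone, 17.7% with MYCN alone, and 15.5% and 16.1% with both changes. No comparison of it passed. The BRCA1 intron between exons 12 and 13 took 71.8% ± 4.37 in wildtype and 64.7% ± 3.60 and 64.7% ± 2.38 on depletion with MYCN repressed, which did not pass (adjusted p = 0.954). BARD1, the partner of BRCA1, joined exon 2 to exon 3 in 16.5% ± 2.24 in wildtype and 23.8% ± 0.773 and 19.6% ± 2.73 on that depletion (adjusted p = 0.778), and its interaction, -7.43 points, did not pass either (adjusted p = 1.00).

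Other members with small p but no pass follow. RAD51B chose between 3′ ends, and its exon 10 was joined to an alternative last exon in 41.2% ± 3.90 in wildtype and in 21.0% ± 4.09 and 24.4% ± 4.33 with both changes (adjusted p = 0.0616). Its canonical last exon took 24.0% ± 3.12 in wildtype and 35.4% ± 2.64 and 50.2% ± 8.56 with both. BRIP1, a helicase partner of BRCA1, joined another annotated donor to exon 2 in 8.31% ± 4.77 with MYCN alone. That join took 2.25% ± 0.901 and 4.36% ± 1.84 on depletion with MYCN expressed (limma adjusted p = 0.464). XRCC4, a scaffold of end joining, had an interaction of 13.7 points at another annotated donor joined to exon 2, and it did not pass (adjusted p = 1.00). ATM, the apical kinase of the break response, joined exon 6 to exon 7 in 29.9% ± 3.34 in wildtype and in 22.5% ± 4.31 and 23.2% ± 5.80 on depletion with MYCN repressed (adjusted p = 1.00). An intron near the 3′ end of CHEK1 took 41.3% ± 3.62 in wildtype and 34.0% ± 3.15 and 33.4% ± 2.08 on that depletion (adjusted p = 1.00), and FANCM exon 16 was joined to exon 17 in 52.1% ± 0.216 in wildtype, with an averaged knockdown effect of -7.41 points (adjusted p = 0.425).

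CHEK2, the kinase downstream of ATM, had a called exon. Exon 10 (87 bases, in frame) was skipped in 10.0%, 7.93% and 9.46% in wildtype and in 14.4%, 9.68% and 16.4% with MYCN alone. Over all siRNAs MYCN added 4.56 points (log2 odds 0.70 ± 0.20, limma adjusted p = 0.0425), with ranges of 3.65% to 10.4% and 8.32% to 16.4% that overlapped. The call was lost in 15 of 25 alternatives. Exon 8 of CHEK2 was skipped in 16.1% ± 5.72 in wildtype and 28.6% ± 3.65 and 22.6% ± 5.21 in MYCN+/SNRPD3- cells. The difference passed for siRNA #1 (12.6 points, limma adjusted p = 0.0497) and missed over both siRNAs (adjusted p = 0.0608). Exon 8 was skipped in 19.2% ± 2.52 with MYCN alone, and in 23.6% ± 3.72 and 20.4% ± 3.27 on depletion with MYCN repressed. Knockdown gave 5.95 points with MYCN repressed (limma adjusted p = 0.772) and 6.4 points with MYCN expressed (limma adjusted p = 0.388). Neither passed.

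ERCC1, the partner of the XPF nuclease in nucleotide excision repair, had a call at its 5′ end. Exon 2 was joined to an annotated donor 55354 bases upstream (chr19:45423381-45478736), labelled a distant first exon here, in 6.42%, 6.45% and 13.2% in wildtype. With MYCN alone this join took 3.90%, 2.12% and 2.21%. With both changes it took 1.86%, 1.85% and 1.20% with siRNA #1 and 5.69%, 5.83% and 6.61% with siRNA #2, while the MYCN-/SNRPD3- libraries reached 22.1%. The median was 11.8% with MYCN repressed and 2.21% with MYCN expressed, and the fall over all siRNAs passed (7.93 points, log2 odds -1.60 ± 0.24, limma adjusted p = 0.00577) in all 25 alternatives. The siRNAs differed by 5.38 points at this join without passing (adjusted p = 0.54).

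In the RecQ helicases, RECQL joined an upstream annotated donor, labelled a first exon here, directly to exon 2 (chr12:21499615-21501413), over an annotated 46-base exon. That exon shares its splice donor with exon 1 of the canonical transcript. This join took 4.79%, 5.06% and 4.54% in wildtype and 5.82%, 5.53% and 4.25% with MYCN alone. It took 6.80%, 7.79% and 10.0% with MYCN and siRNA #1 and 9.41%, 9.49% and 8.47% with MYCN and siRNA #2. The 6 libraries with both changes were above the 12 others, and the rise passed for both altered (3.86 points, log2 odds 0.79 ± 0.14, limma adjusted p = 0.0288) and for MYCN over all siRNAs (2.20 points, adjusted p = 0.0406), which was lost in 17 of 25 alternatives. The depletion effect with MYCN expressed, 3.46 points, did not pass (adjusted p = 0.214). WRN, the Werner syndrome helicase, had its exon 14 skipped more over all siRNAs (3.86 points, limma adjusted p = 0.0161), with 1 library of MYCN+/SNRPD3- siRNA #2 at 16.5% and the other MYCN-expressing libraries from 2.95% to 6.56%.

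**Figure D4:**
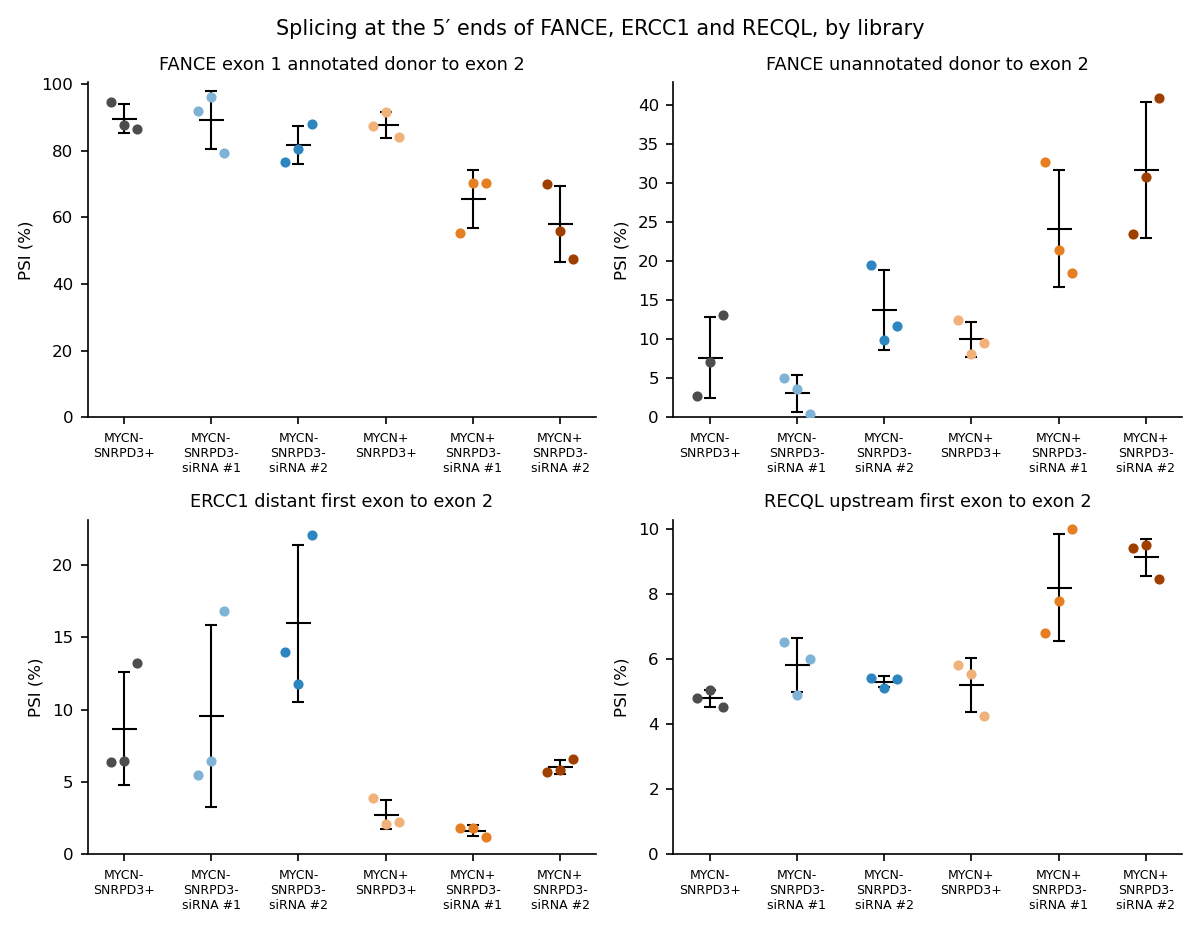
PSI, in percent, of joins into exon 2 of FANCE, ERCC1 and RECQL, by group; points are libraries, bars the mean ± SD of 3. The FANCE unannotated donor is at 18.4% to 40.8% in the 6 MYCN+/SNRPD3- libraries, the distant ERCC1 first exon has medians of 11.8% with MYCN repressed and 2.21% with MYCN expressed, and the RECQL join is at 6.80% to 10.0% with both changes.

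MSH5, a MutS homologue known for its role in meiotic recombination, had 2 called introns near its 3′ end in a cluster with widely scattered values. The 85-base intron (chr6:31761780-31761866) took 0.437% to 33.6% with MYCN repressed, median 18.3%, and 0.272% to 7.86% with MYCN expressed, median 0.432%. Its fall over all siRNAs passed (17.1 points, limma adjusted p = 0.0235). The intron between exons 23 and 24 fell by 13.7 points (adjusted p = 0.0382), and this call was lost in 13 of 25 alternatives. Another MSH5 exon, number 14, swung from 2.88% to 99.7% across the 18 libraries without a call.

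The siRNAs against SNRPD3 differed in no member intron that passed. Members with small p included a join from another annotated donor to ATM exon 2. It took 7.03% and 6.24% with siRNA #1 and 14.1% and 16% with siRNA #2 (limma adjusted p = 0.371). A RECQL5 intron took 14.5% and 17.9% against 24.1% and 35.5% (limma adjusted p = 0.554).

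Exons differed widely in how often they were left out. RAD51D exon 3 was skipped in 62.3% on average over the 18 libraries, XRCC3 exon 2 in 49.7%, FANCL exon 4 in 29.6%, FANCA exon 30 in 28.7% and ERCC1 exon 8 in 24.0%. The median over the 87 exons was 3.41%. The most skipped annotated exon of each role included a 159-base exon of FANCC (99.6%), a 77-base exon of RAD50 (99.5%), a 167-base exon of PMS2 (99.5%), a 96-base exon of TP53BP1 (99.3%) and a 125-base exon of BRIP1 (98.6%). A 231-base exon of XPA was left out in 90.4%, and a noncoding 246-base exon of LIG4 in 0.881% to 98.6%. The LIG1 exon skipped most, exon 17, was left out in 9.12%.

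Related repair genes outside the list were counted in the same fit, with 1285 introns of 101 genes tested. When both were altered 4 introns passed, 2 higher and 2 lower, where 0.559% of all introns did. For MYCN over all siRNAs 6 passed, 3 higher and 3 lower, where 1.23% of all introns did. As shares of the 1285, both counts were below those over all introns. For MYCN alone 1 passed, where 0.0543% of all introns did. BABAM2, a subunit of the BRCA1-A complex, was the single call for MYCN alone, where an unannotated join fell from 4.39% ± 1.08 to 0.399% ± 0.334 (limma adjusted p = 0.044), and it passed for both altered and over all siRNAs too. EXO1, an exonuclease of resection and mismatch repair, used a called intron (chr1:241849027-241850409) in 18.3% ± 0.147 in wildtype and 47.8% ± 12.6 and 45.1% ± 9.33 with both changes (limma adjusted p = 0.0293). The EXO1 intron also stood above wildtype with MYCN alone, at 28.9% ± 2.4. On depletion with MYCN repressed it took 35.0% ± 9.78 and 33.1% ± 6.33. MDM4, an inhibitor of p53, fell from 32.7% ± 1.69 to 22.5% ± 3.16 and 23.4% ± 1.81 (adjusted p = 0.0455), and an unannotated POLM join rose by 5.43 points (adjusted p = 0.0476). The MDM4 intron took 30.5% ± 0.444 with MYCN alone, and 24.3% ± 3.24 and 28.8% ± 1.45 on depletion with MYCN repressed. The POLM join took 1.07% in wildtype, 2.41% with MYCN alone, and 2.39% and 2.64% on that depletion. EXO1, MDM4 and POLM did not pass for MYCN alone or for that depletion. Over all siRNAs the calls also included 2 introns of GTF2H1 that share a splice site, and single introns of HELQ and POLB.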

How the data were processed

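Total RNA of SHEP.tet21n cells was sequenced in 18 libraries after stranded mRNA library preparation. The authors aligned reads to hg38 with STAR 2.5.0a, used SAMtools 1.3.1 (submitters' processing notes) and ran the leafcutter workflow. The deposited values are the fraction of a cluster's split reads taken by each intron, with no counts, so depth is unknown. A second deposited table holds the authors' own comparisons (FDR and delta PSI) and was not used.

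Members and gene lists were chosen with earlier results of these data known. Introns were matched to GENCODE release 44 exon boundaries. PSI were transformed to log2((PSI + 0.01)/(1 - PSI + 0.01)), called log2 odds, and fitted with limma 3.58.1 in R 4.3.3 (6 group means, all 18 libraries, mean PSI 0.01 to 0.99, Benjamini-Hochberg over 152722 introns per comparison, adjusted p under 0.05). Both siRNAs were averaged. The study calls the libraries independent biological replicates of 1 line, and p-values measure the spread between them. The fit was also run on simulated data in which residuals were shuffled between libraries. That run does not test spread particular to a library or group, and its outcome is not given here.

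Introns were named where called, at most 12 per comparison, or, with fewer than 4 calls, up to 4 genes with the smallest p and a PSI difference of at least 0.05, together with the most skipped annotated exon per role and the large BRCA1 exon. The exon skipping share was added after the data were seen. Its called exons, and the exons listed for high skipping, were chosen after their values were seen. Other filters, offsets, single siRNAs, a replicate block and libraries left out were tried as alternatives.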

Additional observations from a re-analysis of the deposited data

How the results depend on the processing

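Depth is unknown, so no counting error could be attached to a PSI, and 3 libraries per group of a single line limit what could be called. Alternatives were run for the counts of called introns and exons and for each named result. Those for the counts of called member introns come first. When both MYCN and SNRPD3 were altered the count, 5, became 11 among introns with 18 different values, 2 with a PSI difference of at least 0.05, 1 with only the groups compared in the fit, 3 with siRNA #1 alone, 0 with siRNA #2 alone and 0 without library 3 of the knockdown groups (chosen after seeing the data). For MYCN over all siRNAs the count, 11, became 4 without those libraries. From 0, the count became 1 for MYCN alone with no PSI filter and with only the groups compared, and 1 for knockdown with MYCN repressed and for siRNA #1 against siRNA #2 without those libraries. Leaving out 1 library at a time gave 0 to 8 calls when both were altered, 6 to 12 for MYCN over all siRNAs and 0 in the other comparisons. The cause of these shifts was not tested, beyond the fewer libraries in a reduced fit.

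For exon skipping when both were altered the count, 5, became 0 with only the groups compared, 0 with siRNA #2 alone, 3 without library 3 of the knockdown groups, and 2 to 7 with 1 library left out. For MYCN over all siRNAs the count, 7, became 4 at a mean PSI of 0.05 to 0.95, 3 without library 3 of the knockdown groups and 4 to 8 with 1 library left out.

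Over introns the replicate numbers did not pair the libraries: deviations from the group means of same-numbered libraries correlated by 0.00615 on average over 45 pairs (-0.0509 to 0.0638), beside -0.00307 for different numbers. Mean skipping of the member exons, in contrast, was highest in library 3 of all 6 groups. With the number as a replicate block the member intron counts were 6 when both were altered and 15 for MYCN over all siRNAs, and the exon counts 8 and 7.

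Over 52 named results, each refitted under its alternatives, 1353 values were obtained. Of these, 1166 kept direction and side of the threshold, 187 kept direction but no longer passed, and 0 reversed. The 1166 include every alternative of the named results that had not passed, none of which gained a pass. All 187 losses fell on results that had passed. Among those, the call was kept in as few as 4 of 27 alternatives (the MRE11 intron) and in as many as 25 of 25 (the distant ERCC1 join).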
